A study of Mus musculus with 2 samples.

Results

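Replication-dependent and variant histone genes were measured in the hindbrain of mouse embryos. The GENCODE M21 gene tables held 55536 genes, and 75 of them were taken by symbol: 67 protein-coding genes whose symbols begin with Hist1h, Hist2h, Hist3h or Hist4h, and the 8 variant genes H2afz, H2afx, H2afv, H2afy, H2afy2, H3f3a, H3f3b and H1f0. The series holds 1 group, hindbrain of the strain B6NCrl at embryonic day 12.5, as 2 biological replicates of mixed sex. Pool 1 came from 120 embryos and pool 2 from 88 embryos, so each value is an average over many animals and over all cell types of the tissue. Libraries started from 10 ng of RNA and cDNA was primed with oligo-dT, which anneals to runs of A. There is no treated or mutant group, so the comparisons are between Hist genes and variants, between the pools, and between the M21 and M4 annotations of the same libraries. With 1 group no test between conditions was possible, and values are given for each pool or as mean ± SD (n = 2).

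Histones package DNA: H2A, H2B, H3 and H4 form the nucleosome core and H1 binds the linker DNA. Replication-dependent histone mRNAs are made in S phase, and in dividing cells they are the main metazoan mRNAs without a poly(A) tail. They end instead just after a short stem-loop that is bound by the stem-loop binding protein Slbp. The variant genes carry introns or ordinary polyadenylation signals, are expressed outside S phase as well, and supply histones with special roles. In the embryonic hindbrain, cycling progenitors lie next to young neurons. An oligo-dT library samples variant mRNAs through their tails, whereas it reaches a Hist mRNA chiefly where that RNA has a tail or holds an internal run of A.

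The stem-loops that define these mRNA ends are shown first, because the annotated models differ mainly in what follows them. Sequences are those of the GENCODE M21 transcripts, coordinates are on mm10, and capitals mark the 16 bases of the stem-loop, with up to 6 bases on each side in lower case. Hist1h2ab stands for short models (chr13:23751566-23751593, plus strand), Hist3h2a (chr11:58955166-58955193, plus strand) and Hist1h4d (chr13:23581944-23581971, plus strand) for models that run far past the stem-loop, and H2afx (chr9:44335234-44335261, plus strand) is the variant that has one.
Hist1h2ab: aacaaaGGCTCTTTTCAGAGCCacccac
Hist3h2a: accaaaGGCTCTTTTCAGAGCCacccac
Hist1h4d: accaaaGGCCCTTTTCAGGGCCactacc
H2afx: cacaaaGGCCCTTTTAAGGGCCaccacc
The stem-loop of Hist1h2ab and Hist3h2a was the most frequent form when every transcript was counted, carried by 26 genes of classes H1, H2A, H2B and H3. The form of Hist1h4d was carried by 7 genes, all of class H4, and that of H2afx by H2afx alone among the members. Searched on the transcript strand, the histone stem-loop consensus was found in the leading transcript of 45 of 67 Hist genes and in 1 of 8 variants. It occurred in 103 of 21951 protein-coding genes (0.469%) when every transcript was searched. Of the 22 Hist genes without a match, 13 had a model that held the coding sequence only, so the stretch in which the stem-loop would lie was not annotated.

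Runs of 12 or more A within the transcript were searched in the same way and were found in 3 Hist genes. They are shown because one of these genes was by far the most abundant Hist mRNA. Capitals mark the run; Hist1h2ap is on the minus strand (chr13:21833029-21833058), Hist1h2ao on the plus strand (chr13:21810884-21810913) and Hist1h2ac on the minus strand (chr13:23682641-23682670).
Hist1h2ap: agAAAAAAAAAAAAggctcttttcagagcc
Hist1h2ao: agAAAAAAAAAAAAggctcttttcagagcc
Hist1h2ac: agAAAAAAAAAAAAAAAgttctatgatcat
In Hist1h2ap and Hist1h2ao the run of 12 A lay directly before the stem-loop, and in Hist1h2ac a run of 15 A lay beyond it. Such runs were present in 12.6% of protein-coding genes.

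Variant mRNAs were abundant in these libraries, and the Hist median was far below theirs and also below that of all protein-coding genes. Of 67 Hist genes, 47 reached 1 TPM (a level corrected for transcript length and library total) in both pools, against 8 of 8 variants and 61.8% of all protein-coding genes. The Hist median was 5.18 and 3.41 TPM in pools 1 and 2. The variant median was 419 and 389.9 TPM in pools 1 and 2. The median of all protein-coding genes was 5.35 and 5.49 TPM in pools 1 and 2. On the log2(TPM + 0.1) scale, the Hist median minus the variant median was -6.30 in pool 1 and -6.80 in pool 2, a mean of -6.55 ± 0.35 (SD, n = 2). The 67 Hist genes together held 0.103% of gene counts in pool 1 and 0.0838% in pool 2, and the 8 variants held 0.561% in pool 1 and 0.582% in pool 2. In this bulk tissue, fewer cells that express a gene and less RNA per cell cannot be told apart. For Hist genes, and for H2afx, whose transcript also holds a stem-loop, neither can be told apart from RNA that oligo-dT did not reach.

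**Figure D1:**
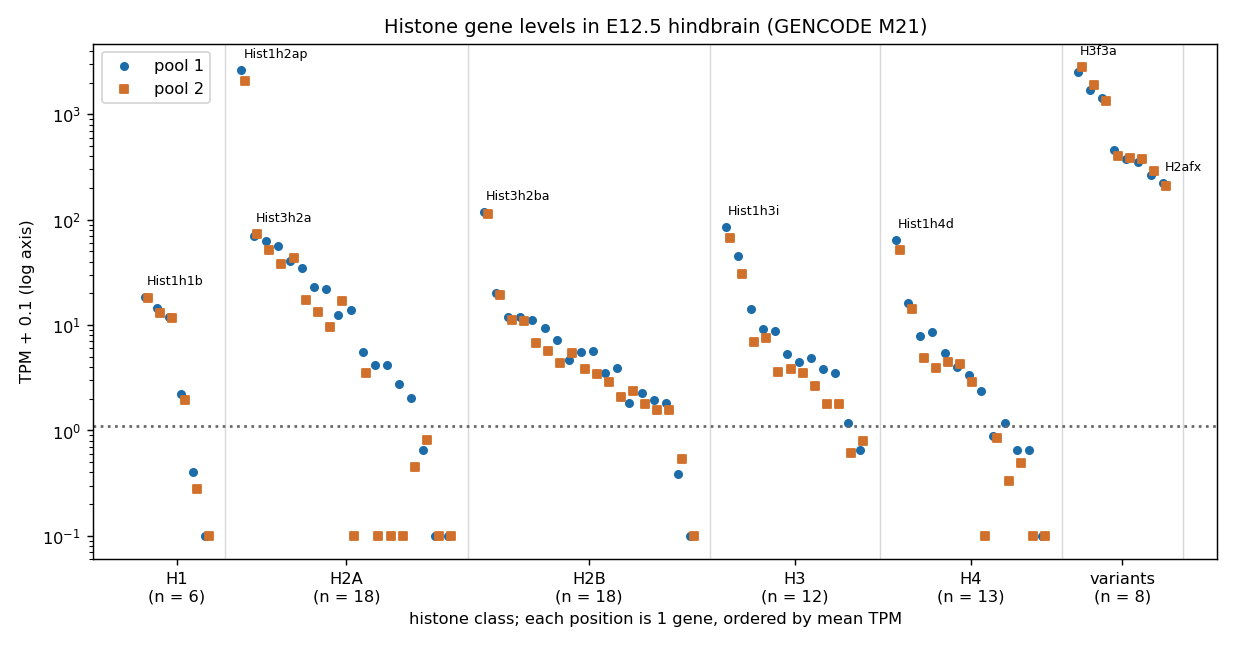
Level of every member in each pool, as TPM + 0.1 on a log axis; circles are pool 1, squares pool 2, and the dotted line marks 1 TPM. Hist genes are grouped by histone class and ordered by mean TPM; apart from Hist1h2ap, every Hist gene lies below every variant, and genes at the bottom of the axis had no count.

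A single gene, Hist1h2ap, which encodes a core H2A protein, carried most of the Hist signal. Hist1h2ap (ENSMUSG00000094777.2, chr13:21833026-21833507) had 2613 TPM in pool 1 and 2072 TPM in pool 2, from 19992 and 14614 expected counts. It held 61.5% of all Hist counts in pool 1 and 59.6% in pool 2, and 73.9% and 74.1% of the summed Hist TPM. Among protein-coding genes it ranked 16 by TPM in pool 1 and 20 in pool 2, near H3f3a at ranks 18 and 15. It exceeded the next Hist gene by 21.9-fold in pool 1 and 18.1-fold in pool 2, and it was the only Hist gene above the lowest variant in either pool. Its M21 model is 482 bases long, of which 393 are coding, and ends 3 bases after the stem-loop. The internal run of A printed above and this level occur together in 1 gene; whether the run primed the cDNA was not tested. Hist1h2ao, with the same run, had 20.1 counts in pool 1 and none in pool 2. Hist1h2ac, with the longest run, had 26.7 counts in pool 1 and 31.1 counts in pool 2. The counts of these 2 genes cannot decide the question. Hist1h2ao shares most of its sequence with Hist1h2ap, and the run of Hist1h2ac lies beyond its stem-loop, where an mRNA that ends at the stem-loop would not hold it.

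The counts of Hist1h2ap cannot be assigned to its locus alone. Hist1h2ap and Hist1h2ao shared 353 windows of 100 bases, which made up 92.2% of the windows of Hist1h2ap and 92.7% of those of Hist1h2ao. The deposited interval of the TPM estimate for Hist1h2ao ran to 11.4 TPM in pool 1 and 10.0 TPM in pool 2. A further pair of H2A loci shares sequence in the same way: Hist2h2aa2 had 55.98 TPM in pool 1 and 38.2 TPM in pool 2, while Hist2h2aa1 had 12.4 TPM in pool 1 and 16.9 TPM in pool 2. All windows of Hist2h2aa2 lie within Hist2h2aa1, and pool 1 was the higher pool for Hist2h2aa2 but the lower one for Hist2h2aa1.

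Among the remaining H2A genes, the next levels lay far below Hist1h2ap. Hist3h2a had 69.8 TPM in pool 1 and 73.6 TPM in pool 2. Hist1h2ae had 63.2 TPM in pool 1 and 51.7 TPM in pool 2, and Hist1h2ag had 40.8 TPM in pool 1 and 43.2 TPM in pool 2. Both pools were close for Hist3h2a and Hist1h2ag, and pool 1 was higher for Hist1h2ae. Hist1h2ab had 35.0 TPM in pool 1 and 17.2 TPM in pool 2, and Hist1h2ai had 22.8 TPM in pool 1 and 13.3 TPM in pool 2, both higher in pool 1. Of 18 H2A genes, 10 reached 1 TPM in both pools and 5 in 1 pool only.

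Genes of the other core classes had their own leading members. For H2B, Hist3h2ba (ENSMUSG00000056895.4, chr11:58948920-58949533) had 119.6 TPM in pool 1 and 114.4 TPM in pool 2, and Hist1h2bc had 20.2 TPM in pool 1 and 19.3 TPM in pool 2. Hist3h2ba and Hist3h2a are the 2 genes of the Hist3 group on chromosome 11. In pool 2 they were the highest Hist genes after Hist1h2ap, and in pool 1 Hist1h3i lay between them. Of 18 H2B genes, 16 reached 1 TPM in both pools, the widest detection of any class.
For H3, Hist1h3i had 85.5 TPM in pool 1 and 66.8 TPM in pool 2, and Hist2h3b had 45.1 TPM in pool 1 and 30.5 TPM in pool 2, both higher in pool 1. For H4, Hist1h4d (ENSMUSG00000061482.7, chr13:23581598-23582735) had 63.7 TPM in pool 1 and 51.4 TPM in pool 2. Of 12 H3 genes 10 reached 1 TPM in both pools, and of 13 H4 genes 7 did. The linker histone class was the lowest at its top: the leading gene, Hist1h1b, had 18.3 TPM in pool 1 and 17.8 TPM in pool 2, and 4 of 6 H1 genes reached 1 TPM in both pools.

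No count fell on 5 Hist genes in either pool: Hist1h1t, Hist1h2aa, Hist1h2ba, Hist1h4m and Hist2h2ab. The limit that a count of 0 allows, 3 counts, corresponds to at most 0.572 TPM for these genes and covers counting error only, not how reads shared between genes were divided. The deposited intervals reached higher for 3 of them: 2.49 TPM in pool 1 and 2.41 in pool 2 for Hist1h4m, 88.1% of whose 100-base windows occur in other genes, 1.18 and 0.77 TPM for Hist2h2ab, and 0.75 TPM in either pool for Hist1h2ba. Hist1h1t, Hist1h2aa and Hist1h2ba encode histones of the male germ line, and male germ cell markers were also near 0: Prm2, Tnp1 and Acrv1 had no count in either pool, and Prm1 had 1 count in pool 1 and 3 counts in pool 2. A further 6 Hist genes had counts in pool 1 and none in pool 2. The highest of them, Hist1h2ah, had 84.7 counts (13.9 TPM) in pool 1 and none in pool 2, where 3 counts would be 0.532 TPM. Its deposited interval was 4.83 to 21.6 TPM in pool 1 and reached 8.98 TPM in pool 2, so the intervals overlap, and 89.5% of its 100-base windows occur in other genes.

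The variants spanned mean levels of 217 to 2663 TPM and differed little between the pools. H3f3a and H3f3b, which encode the same replacement H3 protein placed into chromatin outside replication, led the set. H3f3a (chr1:180800832-180813943) had 2536 TPM in pool 1 and 2789.95 TPM in pool 2. H3f3b (chr11:116021912-116027962) had 1716 TPM in pool 1 and 1899 TPM in pool 2. For both genes pool 2 was the higher one.
H2afz, the main H2A.Z gene, whose protein marks promoters, had 1426 TPM in pool 1 and 1329 TPM in pool 2. H2afv, the other H2A.Z gene, had 457.5 TPM in pool 1 and 399 TPM in pool 2. Both H2A.Z genes were higher in pool 1, and H2afz exceeded H2afv in each pool.
H2afy and H2afy2 encode macroH2A histones, which carry a large extra domain and are enriched in silent chromatin. H2afy had 381 TPM in both pools, and H2afy2 had 263 TPM in pool 1 and 293 TPM in pool 2. H1f0, a linker histone known to build up as cells leave the cycle, had 353 TPM in pool 1 and 374 TPM in pool 2. As neighbours in the order of levels, H2afy and H1f0 lay closest to each other, at 381 ± 0.39 and 364 ± 15.3 TPM (SD, n = 2). H2afx, whose protein is phosphorylated at DNA breaks, was the lowest variant, with 224 TPM in pool 1 and 209.5 TPM in pool 2.

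Each of the 5 variant genes with several annotated transcripts was led by the same transcript in both pools. H3f3a-201 held 74.2% ± 0.56 of the gene's transcript TPM, and H3f3b-201 held 75.6% ± 2.86 (SD, n = 2). H2afz-201 held 74.1% ± 0.76, with H2afz-207, which has a shorter coding sequence of 318 against 387 bases, at 25.0% ± 0.83. For H2afv, the 519-base transcript H2afv-201 held 66.1% of TPM in each pool, although the 1633-base H2afv-202 held more counts, 4748 in pool 1 and 3816 in pool 2, against 2538 and 2039 for H2afv-201. H2afy-201 held 65.3% in each pool, and H2afy-204, a transcript without a coding sequence, held 25.0% in pool 1 and 23.5% in pool 2. H1f0, H2afx and H2afy2 have 1 transcript each. No member had a leading transcript that held under 60% of its gene or that differed between the pools.

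**Figure D2:**
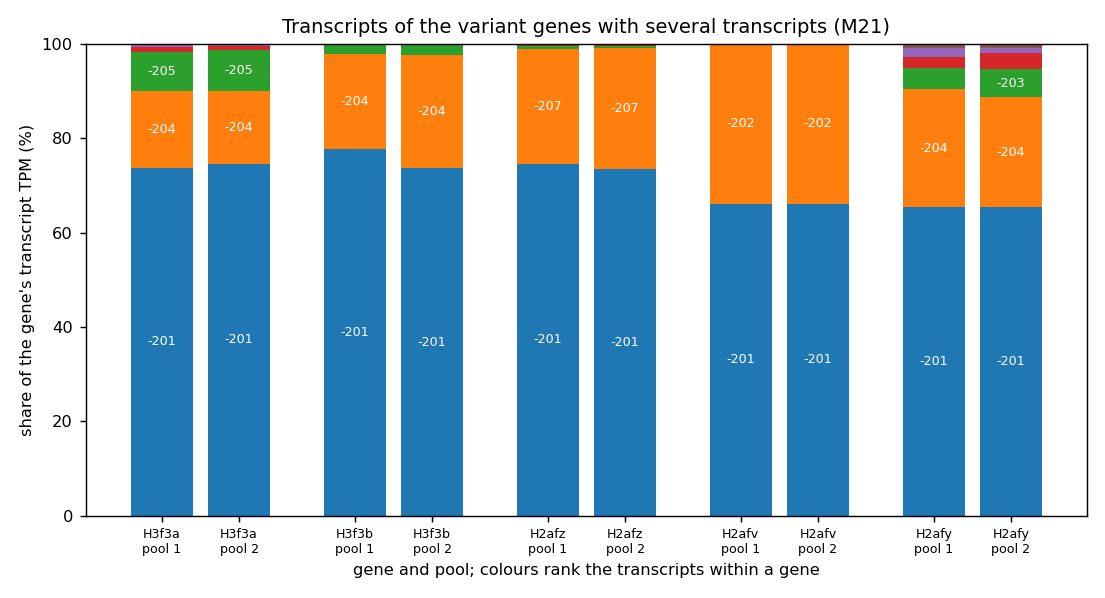
Share of each transcript in its gene's summed transcript TPM, in percent, for the 5 variant genes with several transcripts; bars are the pools and numbers in the bars name the transcript. The leading transcript held between 65.3% and 77.6% and was the same in both pools.

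The Hist genes differ in how their annotated models end. The leading transcript ended within 100 bases after the stem-loop in 23 Hist genes, ran more than 100 bases past it in 22, and had no stem-loop match in 22. A polyadenylation signal, AATAAA or ATTAAA on the transcript strand in the last 50 bases, was found in the leading model of 14 of 67 Hist genes. At least 1 transcript of each of the 8 variants held it, as did 80.7% of protein-coding genes when any transcript was counted. The signals of the leading Hist3 genes and of H2afz are printed with 12 bases on each side and the signal in capitals. They lie at chr11:58956785-58956814 (plus strand), chr11:58949495-58949524 (plus strand) and chr3:137866885-137866914 (plus strand).
Hist3h2a: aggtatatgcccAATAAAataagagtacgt
Hist3h2ba: cataatggtattAATAAAtttggttcaatt
H2afz: ctctgcttactaATTAAAcagtgcatctgt
Hist3h2a, Hist3h2ba and Hist1h2ae, which rank among the 6 highest Hist genes, had both a stem-loop and such a signal. In Hist3h2a the model ran 1643 bases past the stem-loop, in Hist3h2ba 169 bases and in Hist1h2ae 151 bases. Hist1h4d ran 770 bases past it with no such signal in its last 50 bases.

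Grouped by model ending, a grouping made after values were seen, the median was highest for models without a stem-loop match and lowest for extended models in both pools. The 23 short models had a median of 5.41 TPM in pool 1 and 3.46 in pool 2, and the 22 extended models 4.04 and 3.10 TPM, against 7.86 and 4.08 TPM for the 22 models without a match. Among extended models, the 11 with a signal in the last 50 bases had a median of 8.47 TPM in pool 1 and 3.80 in pool 2, against 3.74 and 2.78 TPM for the 11 without. Over all 67 Hist genes, the order of genes with and without a signal differed between the pools. In pool 1 the 14 with a signal had the lower median, 4.935 TPM against 5.18 TPM for the 53 without. In pool 2 they had the higher one, 4.085 against 3.39 TPM. By the mean TPM of both pools, the medians were 4.90 TPM with a signal and 4.40 TPM without. Transcripts longer than 1000 bases held 5.90% of Hist TPM in pool 1 and 6.74% in pool 2, a mean of 6.32% ± 0.60 (SD, n = 2). By expected counts, which are not corrected for length, the share was 19.8% in pool 1 and 22.6% in pool 2. With Hist1h2ap left out, the same long transcripts held 24.3% ± 2.42 of TPM and 53.6% ± 3.24 of counts.

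**Figure D3:**
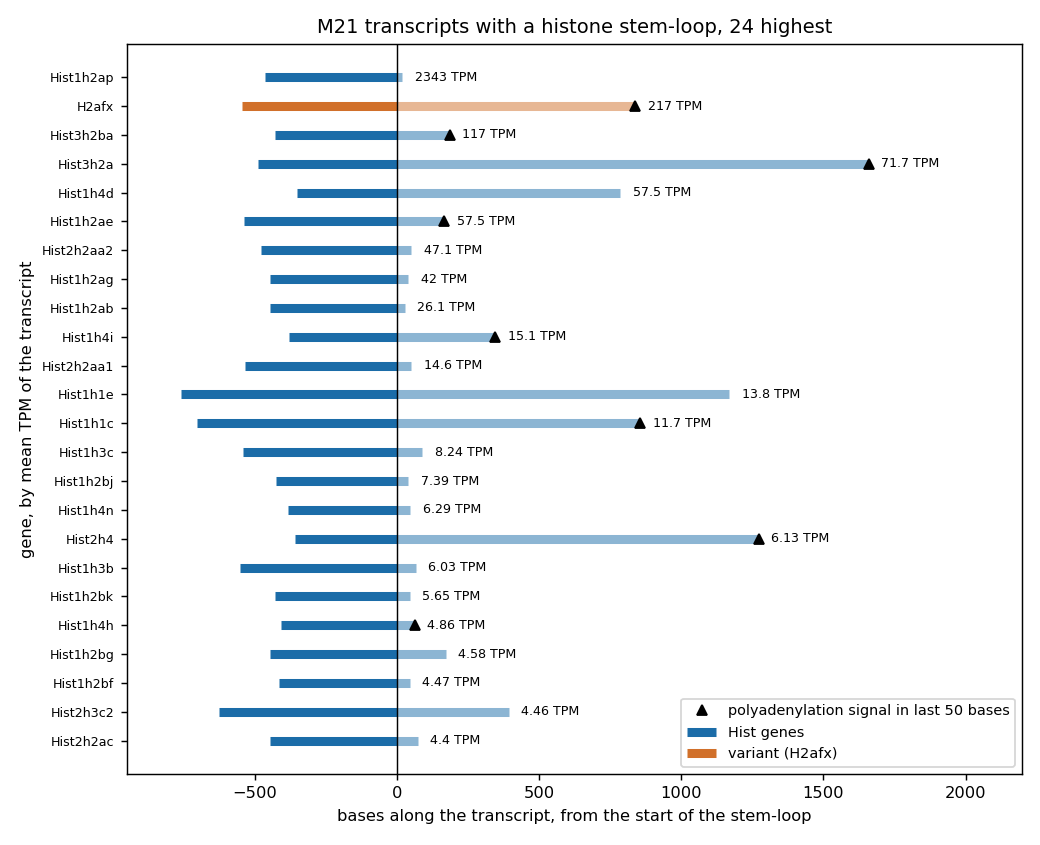
M21 transcripts with a stem-loop match, the 24 genes of highest TPM, aligned at the start of the stem-loop (0 on the axis, in bases); the pale part lies from the stem-loop to the annotated end, and triangles mark a polyadenylation signal in the last 50 bases. Hist1h2ap ends 3 bases after its stem-loop, whereas Hist3h2a runs 1643 and H2afx 822 bases past it.

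Sequence shared among Hist genes limits what a value of 1 locus means. The median Hist gene had 37.1% of its 100-base windows in common with another gene, against 4.56% for the median variant. Among the variants, H2afz (25.7%) and H3f3a (20.8%) shared the most, and the next was H2afy2 (6.55%). In 28 Hist genes the share was 50% or more, and 6 Hist genes, Hist1h4d and Hist1h1b among them, had no shared window. Hist1h2bq-201 and Hist1h2br-202 are identical over 381 bases and were given equal counts, 62.8 each in pool 1 and 54.3 each in pool 2. Annotated genes on either strand overlapped 24 Hist genes, and the labels do not say whether strand was used in counting. Entries of type miRNA lie on the opposite strand of many H2A genes. One of them, Gm44346 at Hist1h2an, had 682 counts in pool 1 and 454 in pool 2, while Hist1h2an itself had 23.8 counts in pool 1 and none in pool 2. All 42 of its 100-base windows occur, on the other strand, in 10 H2A genes including Hist1h2ap. The entry at Hist1h2ap itself, Gm44466, had no count in either pool.

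The choice of annotation moved Hist genes more than variants. Of the 75 members, 72 were found in M4 by gene identifier, all but Hist2h2bb, Hist1h2bm and Hist1h2bh, and 62 of them reached 1 TPM in at least 1 annotation. Of these 62, 13 Hist genes differed 2-fold or more between M21 and M4, against 0 of 8 variants, and against 3.57% of all genes compared. In 11 Hist genes the M21 level was the lower one (1.29% of all genes) and in 2 it was the higher one (2.28% of all genes). In 9 of the 11 the effective length was at least 1.5 times as long in M21. The median ratio of M21 over M4 was -0.07 on the log2 scale over all genes, -0.08 over Hist genes and -0.07 over variants, so the bulk of each set moved alike.

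Hist1h4d shows the pattern with the most reads. Its level was 63.7 TPM in pool 1 and 51.4 TPM in pool 2 with M21, against 235 TPM in pool 1 and 189 TPM in pool 2 with M4, a log2 ratio of -1.88. Its counts were nearly equal, 1322 and 983 with M21 against 1313 and 971 with M4, while its model was 1138 bases long in M21 and 393 in M4. Its counts thus changed little while the length they were divided by changed.
Hist1h1d, a linker histone gene, had 0.30 TPM in pool 1 and 0.18 TPM in pool 2 with M21, against 2.27 and 1.83 TPM with M4. Its model had 7425 bases in M21 and 744 in M4, and the log2 ratio was -2.66. Hist1h3d had 3.74 and 1.67 TPM with M21 against 14.0 and 6.62 TPM with M4 (-1.89). In all of these genes both pools were lower with M21, with no overlap between the annotations. Hist1h4c had 3.28 and 2.78 TPM with M21 against 10.3 and 8.62 TPM with M4 (-1.61). Hist1h2ac had 0.56 and 0.71 TPM with M21 against 1.71 and 2.15 TPM with M4 (-1.47), although its counts were higher in M21, 26.7 and 31.1 against 12.2 and 14.2. Hist1h2ac and Hist1h1d therefore counted as below 1 TPM with M21 and above it with M4 in both pools.

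Hist1h2bk, an H2B gene, passed 2-fold with an unchanged model of 476 bases. It had 53.2 counts (7.06 TPM) in pool 1 and 29.4 counts (4.24 TPM) in pool 2 with M21, against 98.2 counts (13.7 TPM) and 72.8 counts (11.0 TPM) with M4. With this model the reads assigned to the gene, not its length, differed between the annotations.

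The H2B genes Hist1h2bq and Hist1h2br moved the other way. Hist1h2bq had 11.8 TPM in pool 1 and 10.8 TPM in pool 2 with M21, against 0.84 and 0.83 TPM with M4, a log2 ratio of 3.61. Hist1h2br had 11.7 TPM in pool 1 and 11.0 TPM in pool 2 with M21, against 0.36 TPM in pool 1 and none in pool 2 with M4. Their models averaged 430 and 470 bases in M21, against 2121 and 1256 bases in M4. With M21 both genes thus stood above the H2B class median of 4.53 TPM, and most of their level lay in the 381-base transcripts that they share. The next upward ratios, all below 2-fold, were those of Hist1h3h (0.32), Hist1h2bf (0.30) and Hist1h3b (0.30). Hist1h2ap had 2613 TPM in pool 1 and 2072 TPM in pool 2 with M21, against 2815 and 2224 TPM with M4, so its place at the top did not rest on the annotation.

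**Figure D4:**
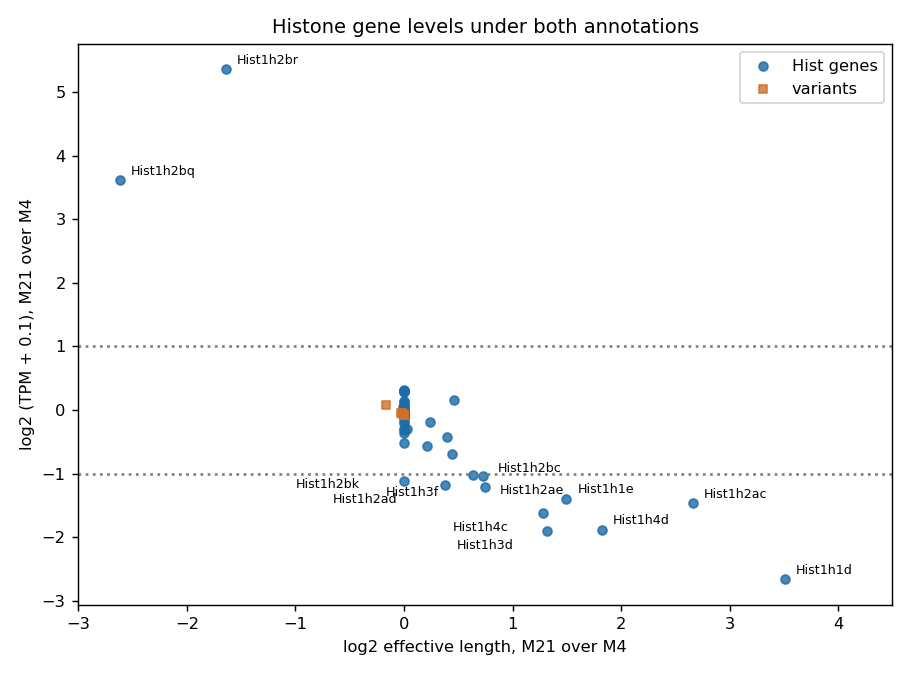
Ratio of M21 over M4 for 62 members: effective length on the x axis and TPM + 0.1 on the y axis, both as log2; dotted lines mark 2-fold. Hist genes (circles) whose M21 models lengthened most lie past the lower 2-fold line, Hist1h2bg with a longer model lies at 0.16, Hist1h2bq and Hist1h2br with shorter models lie at 3.61 and 5.36, and the 8 variants (squares) lie near 0.

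Between the pools, Hist genes leaned towards pool 1 and variants did not. Of 30 Hist genes with 50 or more mean counts, 26 were higher in pool 1, against 4 of 8 variants and 49.4% of all genes tested, after scaling by TMM. The median log2 ratio of pool 1 over pool 2 was 0.31 for these Hist genes and -0.04 for variants, against -0.002 for all genes. Of the 30, 6 were 2-fold or more higher in pool 1, against 0.414% of all genes, and none of the 38 members tested was 2-fold or more lower. In either direction 0.994% of all genes passed 2-fold. The 6 genes had 60.6 to 190 mean counts, whereas these shares cover all genes of 50 or more mean counts and are not matched for depth. Many Hist genes also share sequence, so the 30 are not separate observations. Scaling by spike-in totals moved all genes towards pool 1 by a median of 0.37, put 29 of 30 Hist genes and 8 of 8 variants higher in pool 1, and left Hist genes 0.31 above and variants 0.04 below that median. No p-value is given, since both pools are replicates of a single group.

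The largest ratios were in genes of few counts. Hist1h3b had 89.5 counts (8.60 TPM) in pool 1 and 33.2 counts (3.46 TPM) in pool 2, a ratio of 2.48-fold after scaling. Hist1h2ak had 128.7 counts (21.9 TPM) in pool 1 and 50.9 counts (9.40 TPM) in pool 2. Hist2h4, an H4 gene with a 1630-base model, had 259 counts (8.47 TPM) in pool 1 and 107 counts (3.80 TPM) in pool 2. In each of these 3 genes pool 1 was more than 2-fold higher. Hist1h3d had 85.8 counts in pool 1 and 35.3 in pool 2, and Hist1h3h and Hist1h2ab were the other genes past 2-fold, at log2 ratios of 1.05 and 1.04. Hist1h2ap, with far more counts, was 1.27-fold higher in pool 1. Towards pool 2, the largest ratios were those of Hist2h2aa1 (log2 -0.44), Hist2h2be (-0.23), H2afy2 (-0.14) and H3f3a (-0.14), all below 2-fold. Of these, Hist2h2aa1 had 120.2 counts in pool 1 and 151 in pool 2, and Hist2h2be had 228 in pool 1 and 249 in pool 2.

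**Figure D5:**
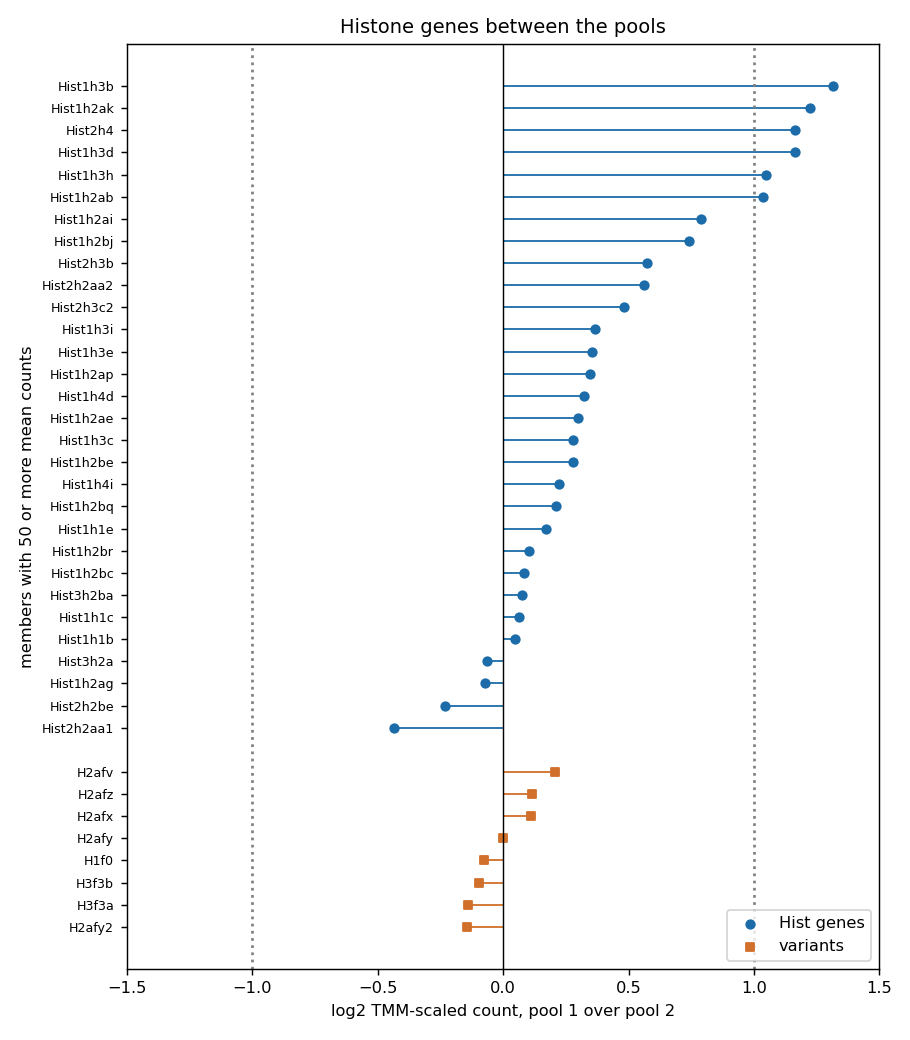
Log2 ratio of TMM-scaled counts, pool 1 over pool 2, for the 38 members with 50 or more mean counts; circles are Hist genes, squares are variants, and dotted lines mark 2-fold. Of 30 Hist genes 26 lie right of 0 and 6 lie past the 2-fold line, whereas the 8 variants lie between -0.14 and 0.21.

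Some other RNAs moved with this lean and others moved against it. Of the RNAs without a poly(A) tail in the list, the 4 with 50 or more mean counts were all higher in pool 1. Rn7sk, the RNA that holds the elongation factor P-TEFb inactive, had 290 TPM in pool 1 and 165 TPM in pool 2. Rn7s1 and Rn7s2, RNAs of the signal recognition particle, each had 9325 TPM in pool 1 and 6733 TPM in pool 2, identical values that count as a single observation. Rpph1, the RNA of ribonuclease P, had 79.2 TPM in pool 1 and 45.0 TPM in pool 2. All 5 dividing cell markers were also higher in pool 1, but by a median log2 of only 0.06: Top2a had 154 TPM in pool 1 and 149 TPM in pool 2, and Pcna had 138 TPM in pool 1 and 132 TPM in pool 2. All 5 erythroid markers were higher in pool 1 by a median of 0.33, with a summed level of 17715 TPM in pool 1 and 14110 TPM in pool 2. All 6 hindbrain markers were lower in pool 1 by a median of 0.36, with a summed level of 139.7 TPM in pool 1 and 182 TPM in pool 2. Of 4 neuron markers, 3 were lower in pool 1 and 1 was higher, with a median log2 ratio of -0.09. What part each of these has in the Hist ratios was not tested.

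The machinery that makes and handles histones was expressed throughout and differed little between the pools. All 14 genes of histone transcription and 3' end processing reached 1 TPM in both pools, with a median of 33.8 TPM. Among all protein-coding genes 61.8% reached it in both pools. The median of all protein-coding genes was 5.35 TPM in pool 1 and 5.49 TPM in pool 2. Slbp, which binds the stem-loop, had 144 TPM in pool 1 and 140 TPM in pool 2. Srrt, a partner of the cap-binding complex, had 117.9 TPM in pool 1 and 115.8 TPM in pool 2, Cpsf3, the nuclease that cuts histone pre-mRNA, had 87.7 and 90.2 TPM, and Ncbp1, a cap-binding subunit, had 79.2 and 80.7 TPM. All 9 chaperones of replication reached 1 TPM, led by Rbbp4 with 359.95 and 358 TPM in pools 1 and 2, Ssrp1 of the FACT complex at 185 and 184 TPM, Nasp at 144 and 141 TPM, and Asf1a at 103.6 and 100.5 TPM. All 12 chaperones and remodellers of variants did so too. Among these, Anp32e, which removes H2A.Z, had 205 TPM in pool 1 and 228 TPM in pool 2, Atrx had 172 and 191 TPM, Vps72, an H2A.Z chaperone, had 169.8 and 167 TPM, and Hjurp, the chaperone of the centromeric H3, had 131 and 128 TPM. None of these 35 genes differed 2-fold between the pools. Only 0.994% of all genes with 50 or more mean counts did, so this does not set the lists apart.

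Other variant histone genes split into expressed and undetected or near-undetected members. Of 11 measured, 4 reached 1 TPM in both pools, against 61.8% of all protein-coding genes, and 7 were below 1 TPM in both. H3f3c had 475 TPM in pool 1 and 449 TPM in pool 2, and Cenpa, the centromeric H3, had 171 TPM in pool 1 and 153.5 TPM in pool 2. Sequence shared with other genes was not searched for this list. How far the H3f3c level comes from its own locus is therefore not known. H2afj had 93.7 TPM in pool 1 and 88.0 TPM in pool 2, and H1fx, a linker histone, had 84.2 TPM in pool 1 and 83.3 TPM in pool 2. All 4 were slightly higher in pool 1. Of the 7 others, 6 had no count in either pool, among them H1foo, the linker histone of the oocyte, and H1fnt and H2afb1, which are known from the male germ line.

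Gene counts came to 31469575 in pool 1 and 29261472 in pool 2, which is deep for the variants, at 4958 counts or more each, and shallow for most Hist genes, of which 37 had fewer than 50 mean counts. Hindbrain markers were present, with 5 of 6 at 1 TPM or more in both pools, and forebrain markers were low, with a summed level of 4.20 TPM in pool 1 and 4.76 TPM in pool 2. All 4 neuron markers and all 5 dividing cell markers were expressed.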

How the data were processed

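PolyA plus RNA-seq of 2 pools was used, with the deposited gene and transcript tables of the GENCODE M21 and M4 annotations on mm10, per the deposited read-me. No aligner or quantification program is named in the labels or headers. Expected counts, as deposited, estimate the reads of a feature and can be fractional. The deposited TPM values are per effective length (length minus 99 bases) and sum over spike-ins too. The deposited interval bounds, in the data recorded as a signal column in TPM units, have no stated level and are centred on a posterior mean, so they can lie off the TPM. The deposited posterior SD of the counts, a score, was not used for any value here. Amplification from 10 ng without molecular identifiers means that floors (3 counts) cover counting error only; fragmentation by tagmentation recovers ends and short RNAs less evenly. Labels call the pools biological replicates.

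The members and lists were chosen with earlier results of these data known. Named genes are the 8 variants, the 12 Hist genes of highest mean TPM, the 5 members of largest M21 over M4 ratio and the 4 of largest pool ratio (50 or more mean counts) in each direction, and of each list the 4 highest and up to 3 under 1 TPM. Other members named, and a few list genes, were chosen after their values were seen. Pool ratios used TMM scaling (edgeR 4.0.16, R 4.3.3) on rounded counts with a prior count of 0.5. Annotation ratios used mean TPM plus 0.1. Windows of 100 bases were matched on both strands against all GENCODE M21 transcripts. The pool ratio was tested on simulated data with scaling by total counts and planted changes larger than 2-fold. TMM scaling was not part of that test. Alternatives were DESeq2 1.42.0 size factors, total and spike-in scaling, other thresholds, M4 and leaving out a pool. Python 3.11.15, pandas 2.3.3, numpy 2.4.6 and matplotlib 3.10.9 were used.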

Additional observations from a re-analysis of the deposited data

How the results depend on the processing

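No paired analysis was possible because the series has 1 group. Of 37 alternative values of the main results, 26 stayed within their limits (1.5 times for a count, 1 SD for a level). This count leaves out the 6 levels with a pool left out, which with 2 pools cannot move by 1 SD. The number of Hist genes at the threshold in both pools was 24 at 5 TPM, and ran from 47 to 55 with either pool left out; variants stayed at 8. The Hist minus variant difference was -6.11 over members that reached 1 TPM in either pool, and ran from -6.80 to -6.30 with either pool left out. The Hist share of the library was 0.348% of TPM in place of counts, 0.0368% of counts without Hist1h2ap (chosen after seeing the data), and 0.0838% to 0.103% with either pool left out. Members past 2-fold between the pools numbered 12 with 10 or more mean counts and 15 with no filter. Members past 2-fold between annotations numbered 4 by expected counts, 9 with a pseudocount of 1 TPM, and 11 to 13 with either pool left out. By counts the sign of M21 over M4 turned for Hist1h1d (0.49), Hist1h4d (0.014), Hist1h2ac (1.10) and Hist1h1e (0.17), whose models are longer in M21. The share of Hist TPM in long transcripts was 3.61% over 1500 bases, 3.04% with M4, 21.2% by counts and 24.3% without Hist1h2ap, and 5.90% to 6.74% with either pool left out. Hist1h3h stood at 1.00 (log2), just under 2-fold, between the pools with M4. Depth limits Hist genes under 50 mean counts, for which no pool ratio is called.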

Other observations

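GENCODE M21 also lists 3 Hist pseudogenes, which belong to no comparison above. Hist1h2aj had 54.2 counts (10.7 TPM) in pool 1 and 105.7 counts (22.7 TPM) in pool 2, a lean towards pool 2 that differs in direction from 26 of the 30 Hist genes tested. Hist3h2bb-ps had 12.1 counts in pool 1 and 10.6 counts in pool 2, and Hist1h2al had 1.25 counts in pool 1 and 2.53 counts in pool 2. An entry of type miRNA on the strand opposite Hist3h2a, Gm44313, had 66.5 counts in pool 1 and 16.3 counts in pool 2, whereas Hist3h2a itself had 2855 counts in pool 1 and 2774 in pool 2. Its 39 windows of 100 bases all occur in Hist3h2a and in no other member in full.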
